A study of Capra hircus with 29 samples.

Results

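The genes that write, copy, erase and guard DNA methylation were followed in goat oocytes. Of the 10 genes chosen by symbol for this role (DNMT1, UHRF1, DNMT3A, DNMT3B, DNMT3L, TET1, TET2, TET3, DPPA3 and ZFP57), 9 had a row among the 21343 genes of the oocyte expression table, each symbol on 1 row. DPPA3 was not analysed here. The oocytes came from Ji'ning grey goats of a high fertility group (more than 3 kids per birth by the sample labels) and a low fertility group (fewer than 2; the study's methods count the limits themselves into both groups), and were sorted by the size of the follicle into large, medium and small. The groups were HLO and LLO (high and low, large follicles), HMO and LMO (medium) and HSO and LSO (small), with 5 samples each and 4 of HSO, 29 in all. No treatment, transgene or mutation is labelled in any group, and the age of the goats is not given in the sources used here. Each sample held a few oocytes; pooling of the oocytes by follicle size is stated for the high fertility group. Which goats stand behind a sample is not recorded, so every p-value below measures only the spread between these samples, which may be partly technical.

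Methyl groups on CpG cytosines are placed by the de novo enzymes DNMT3A and DNMT3B, helped by the catalytically inactive DNMT3L, and are copied after replication by DNMT1, which UHRF1 brings to half-methylated sites. TET enzymes oxidise the methyl group, the first step of its removal, while DPPA3 and ZFP57 shield maternal and imprinted sites. The growing mammalian oocyte is known for gaining its methylation without dividing, and for storing these proteins or their transcripts for the early embryo.

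Expression was given as FPKM, the number of sequenced fragments scaled to the exon length of the gene and to the size of the library, so that values can be set side by side between genes. The sums of FPKM ran from 222697 (LMO replicate 2) to 490048 (HMO replicate 1), and 6646 to 8689 genes per sample exceeded 0.5 FPKM. The expression table does not give the number of reads behind each value, and other sources of depth were not used here, so no counting interval is given. LLO replicate 2 also stood apart, with the most genes listed at 0 (10989) and with 35.3% of its FPKM in its 10 highest genes. The oocyte label was checked against 13 oocyte markers, all found, whose summed level was 1540 to 10303 FPKM per sample; GDF9 had a median of 246 FPKM and ZP3 of 1274, while NOBOX had 0.334. Of 11 granulosa cell markers 10 had a row and their sum was 0.531 to 8.20 FPKM, with AMH and HSD17B1 listed at 0 in all 29 samples. GJA1 exceeded 0.5 FPKM in 19 of 29 samples (highest 4.23), INHBA in 10 (5.21), FST in 5 (1.54) and INHA in 1 (0.782). Leukocyte markers summed to 0.672 FPKM at most and endothelial and blood markers to 1.61. Theca markers summed to 4.38 to 39.2 FPKM, nearly all from STAR (median 18.0), with INSL3 listed at 0 in all samples. As these are bulk samples, fewer cells of a type and less RNA per cell cannot be told apart.

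The maintenance pair was far above all other members. DNMT1 (ENSCHIG00000023294) had a mean of 81.3 ± 76.0 FPKM (SD, n = 29), above 96.8% of the genes in the table, and UHRF1 (ENSCHIG00000018588) had 57.2 ± 38.8 FPKM (SD, n = 29), above 96.0%. The de novo enzymes DNMT3A (ENSCHIG00000014247) and DNMT3B (ENSCHIG00000006391) followed at 4.68 ± 3.15 and 3.67 ± 4.98 FPKM (SD, n = 29). TET2 (ENSCHIG00000019979) stood at 1.43 ± 0.746 FPKM and TET1 (ENSCHIG00000009920) at 0.598 ± 0.423 FPKM (SD, n = 29). TET3 (ENSCHIG00000019208) was never above 0.370 FPKM and was listed at 0 in 1 sample. DNMT3L (ENSCHIG00000026242) was listed at 0 in 25 of the 29 samples and ZFP57 (ENSCHIG00000014114) in 27.

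The order of the levels held in every sample at only some of its steps. UHRF1 was above DNMT3A in 29 of 29 samples, with a median ratio of 14.9, and TET2 was above TET1 in 29 of 29, with a median ratio of 2.46. TET1 was above TET3 in 28 of 29 samples. The neighbours DNMT1 and UHRF1 did not keep their order, as DNMT1 was the higher in 22 of 29 samples with a median ratio of 1.38. DNMT3A exceeded DNMT3B in 19 of 29 samples and DNMT3B exceeded TET2 in 21 of 29, so these neighbours overlapped too.

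**Figure D1:**
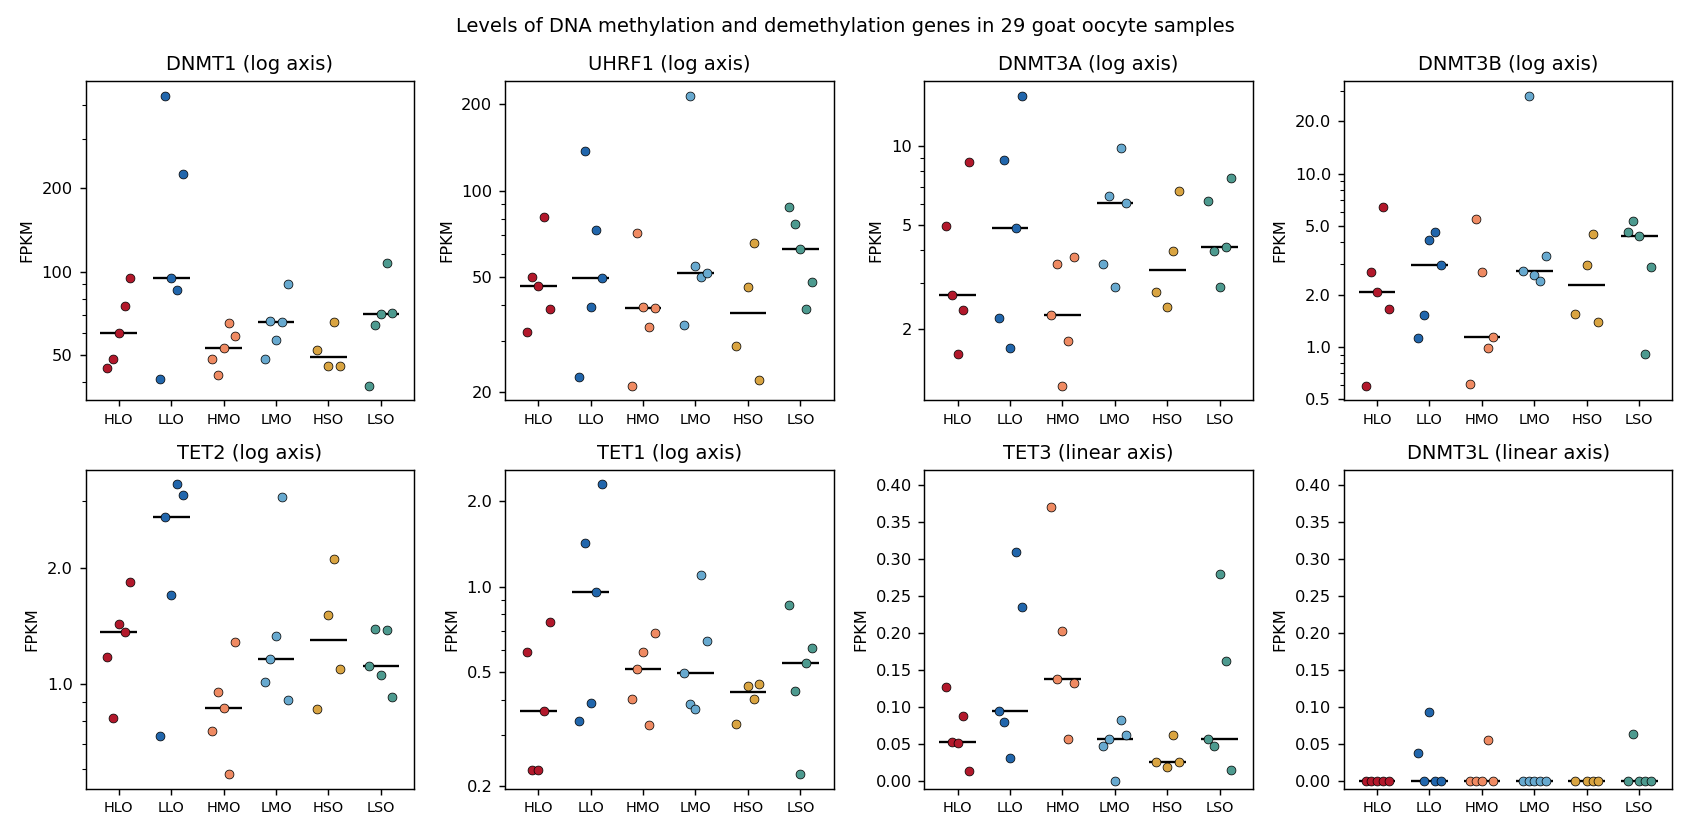
FPKM of 8 of the 9 genes in each of the 29 oocyte samples (points) with the group median (line); H and L are high and low fertility, and the middle letter is the follicle size. DNMT1 and UHRF1 lie between 21.0 and 432 FPKM, DNMT3A and DNMT3B between 0.596 and 28.2, and TET3 and DNMT3L, on linear axes, at 0.370 or below.

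In oocytes of large follicles DNMT1, the enzyme that copies methylation to the new strand, stood at 44.8, 48.2, 60.1, 75.4 and 95.1 FPKM in HLO replicates 1 to 5 and at 41.0, 432, 94.7, 85.9 and 225 in LLO. In medium follicles it was 48.4, 42.5, 52.8, 65.3 and 58.8 FPKM in HMO and 48.3, 66.2, 56.8, 65.6 and 90.2 in LMO. In small follicles it was 52.3, 45.8, 66.0 and 45.8 FPKM in HSO (replicates 1, 3, 4 and 5) and 38.8, 64.1, 70.3, 107 and 71.0 in LSO. The groups overlapped at each follicle size, and LLO replicates 2 and 5 were above every other sample of the series. LLO therefore had the widest spread, 176 ± 159 FPKM (SD, n = 5), against 64.7 ± 20.8 (SD, n = 5) in HLO.

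UHRF1, the protein that recognises half-methylated CpG, was 32.4, 50.3, 46.7, 81.3 and 38.7 FPKM in HLO and 22.5, 138, 39.5, 72.9 and 49.9 in LLO. In medium follicles it was 21.0, 71.2, 39.3, 33.5 and 39.2 FPKM in HMO and 34.2, 214, 54.8, 50.1 and 51.6 in LMO. The small follicle groups had 28.8, 46.3, 65.6 and 21.9 FPKM in HSO and 87.7, 76.8, 62.9, 38.8 and 48.3 in LSO. Again no pair of groups was separated, and the highest samples were LMO replicate 2 and LLO replicate 2, the libraries described above as standing apart.

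DNMT3A, the main de novo methyltransferase of the oocyte in mice, was 4.96, 2.70, 1.62, 2.37 and 8.70 FPKM in HLO and 2.21, 8.82, 1.70, 4.88 and 15.6 in LLO. In medium follicles it was 2.27, 3.56, 1.22, 1.81 and 3.78 FPKM in HMO and 3.54, 6.46, 2.91, 9.83 and 6.07 in LMO. HSO had 2.76, 2.43, 3.97 and 6.76 FPKM and LSO had 6.20, 3.97, 2.90, 4.10 and 7.55. At medium size 3 of 5 LMO samples were above every HMO sample and 3 of 5 HMO samples were below every LMO sample, the others overlapping.

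DNMT3B, the second de novo enzyme, was 0.596, 2.69, 2.07, 6.45 and 1.64 FPKM in HLO and 1.12, 1.53, 4.13, 4.61 and 2.95 in LLO. In medium follicles it was 0.605, 5.49, 2.70, 0.989 and 1.14 FPKM in HMO and 2.73, 28.2, 2.59, 2.40 and 3.34 in LMO. HSO had 1.55, 2.97, 4.50 and 1.39 FPKM and LSO had 4.59, 5.32, 4.35, 0.905 and 2.88. LMO replicate 2 was far above the rest of its group and of the series, and the lowest values were shared by HLO replicate 1 and HMO replicate 1. The highest value over the lowest was 47.4, the widest range among the 6 genes with no sample at 0. DNMT3L, the cofactor of both enzymes, was above 0 only in LLO replicates 1 and 3, HMO replicate 4 and LSO replicate 2, at 0.0379, 0.0939, 0.0562 and 0.0643 FPKM.

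TET2 was the highest of the 3 oxidising enzymes. It was 1.18, 0.814, 1.44, 1.37 and 1.84 FPKM in HLO and 0.734, 2.73, 1.70, 3.31 and 3.11 in LLO. It was 0.753, 0.955, 0.866, 0.582 and 1.29 FPKM in HMO and 1.01, 1.16, 1.34, 3.07 and 0.911 in LMO. In small follicles it was 0.860, 1.51, 2.11 and 1.09 FPKM in HSO and 1.11, 1.39, 1.06, 1.38 and 0.925 in LSO. The groups overlapped at each size, and 3 of 5 LLO samples were above every HLO sample. TET1 was above 0.5 FPKM in 13 of 29 samples and in none of the 4 HSO samples, and its highest values were 2.29 and 1.42 FPKM in LLO replicates 5 and 2, the 2 samples with the highest DNMT1.

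TET3, which oxidises the paternal genome after fertilisation in mice, was listed at 0.370, 0.138, 0.202, 0.0567 and 0.133 FPKM in HMO and at 0.0471, 0.0567, 0, 0.0824 and 0.0622 in LMO. Of the HMO samples 4 of 5 were above every LMO sample. As no sample reached 0.5 FPKM, the filter described below left the gene out. Without the filter TET3 met an unadjusted p under 0.05 in medium follicles, higher in HMO, beside 1302 of 16021 genes. It also met that limit in the interaction of fertility and follicle size, beside 1197 genes. In the other groups TET3 ranged from 0.0136 to 0.127 FPKM in HLO, 0.0310 to 0.309 in LLO, 0.0188 to 0.0625 in HSO and 0.0152 to 0.280 in LSO. ZFP57, a zinc finger protein that holds imprints in place, was above 0 in HMO replicate 4 (0.0301 FPKM) and LSO replicate 1 (0.0409 FPKM) only.

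High and low fertility oocytes were compared at each follicle size with limma's moderated test on log2(FPKM + 1). A gene entered a comparison if 4 or more of its samples exceeded 0.5 FPKM. This filter left 6 members, DNMT1, UHRF1, DNMT3A, DNMT3B, TET2 and TET1, and in small follicles 5, as TET1 did not pass there. Differences on this scale understate those of genes with low FPKM. No member had a Benjamini-Hochberg adjusted p under 0.05 in any fertility comparison, beside 0% of all 8328 genes tested in large, 0.0715% of 8390 in medium, 0.0119% of 8376 in small follicles and 0.0103% of 9692 over all sizes. The members are described further by an unadjusted p under 0.05, read against the share of all genes that met it.

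In large follicles 0 of 6 members had an unadjusted p under 0.05, beside 4.14% of all genes. The smallest p was that of TET1, which was lower in HLO than in LLO by a log2 difference of -0.47 (standard error 0.265, 95% confidence interval -1.04 to 0.10; limma adjusted p = 0.828), and an exact permutation test over the samples, two-sided, gave p = 0.127. The difference of TET1 was -0.28 without LLO replicate 5, and -0.96 with a pseudocount of 0.1. DNMT1 had the widest difference, -1.02, with an interval of -2.35 to 0.31. The intervals of TET1 and DNMT1 include 0.

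In medium follicles 1 of 6 members, DNMT3A, had an unadjusted p under 0.05, beside 8.67% of all genes and 3.58% that were also lower in HMO. Its mean was 2.53 ± 1.11 FPKM in HMO and 5.76 ± 2.75 FPKM in LMO (SD, n = 5 each), a log2 difference of -0.90 (standard error 0.342, interval -1.64 to -0.16; limma adjusted p = 0.482). The exact permutation test gave p = 0.0476. In limma DNMT3A missed the unadjusted limit without HMO replicate 3 (difference -0.75) and without LMO replicate 4 (difference -0.71). DNMT3B had the larger difference, -1.03, but an interval of -2.31 to 0.26.

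In small follicles 0 of 5 members had an unadjusted p under 0.05, beside 4.41% of all genes. UHRF1 came nearest, with a log2 difference of -0.68 between HSO and LSO (standard error 0.406, interval -1.57 to 0.22; limma adjusted p = 0.880; exact permutation test p = 0.143). Without HSO replicate 5 the difference was -0.43. TET2 was the 1 member with a higher mean in HSO, by 0.12 on the log2 scale (interval -0.34 to 0.58).

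With the 3 follicle sizes in 1 fit, 2 of 6 members had an unadjusted p under 0.05, beside 9.99% of all genes and 6.59% that were also lower in the high fertility oocytes. DNMT1 differed by -0.56 on the log2 scale (standard error 0.249, interval -1.07 to -0.05; limma adjusted p = 0.476). DNMT3A differed by -0.54 (standard error 0.249, interval -1.05 to -0.04; limma adjusted p = 0.476). Each missed the limit of 0.05 when some single samples were left out, DNMT1 for 6 of the 29 and DNMT3A for 14 of the 29. Without LLO replicate 2 the difference of DNMT1 was -0.40, and without LLO replicate 5 that of DNMT3A was -0.43. When LLO replicate 2 and LMO replicate 2 were both left out, a choice made after the data were seen, the differences were -0.40 and -0.46 and neither met the limit.

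All 6 members had a lower mean in the high fertility oocytes in large and in medium follicles and over all sizes, and 4 of 5 in small follicles. The median difference of the members was -0.44, -0.54 and -0.33 in large, medium and small follicles and -0.52 over all sizes, and that of all genes tested was -0.09, -0.07, -0.01 and -0.04. The members' median was -0.24 in large follicles without LLO replicate 5, -0.35 in medium follicles without LMO replicate 2, -0.19 in small follicles without HSO replicate 1 and -0.34 over all sizes without LMO replicate 2. With limma's array weights the members' median was -0.46, -0.45 and -0.39 in large, medium and small follicles and -0.19 over all sizes. That of all genes was then -0.26, -0.32, -0.01 and -0.16. With median-of-ratios scaling the 2 medians over all sizes were -0.42 for the members and 0.02 for all genes. Of all genes tested 42.4%, 43.5%, 49.2% and 42.8% were higher in the high fertility group, so lower means were also the more common kind in the table. The members are correlated with each other, and the 4 comparisons share samples, so their signs are not separate observations. With median-of-ratios scaling, DNMT3B turned higher in HLO and the other directions stayed. In every comparison the high and low groups overlapped for all 9 members, beside 0.432% of genes whose groups did not overlap in large, 1.7% in medium and 2.05% in small follicles.

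**Figure D2:**
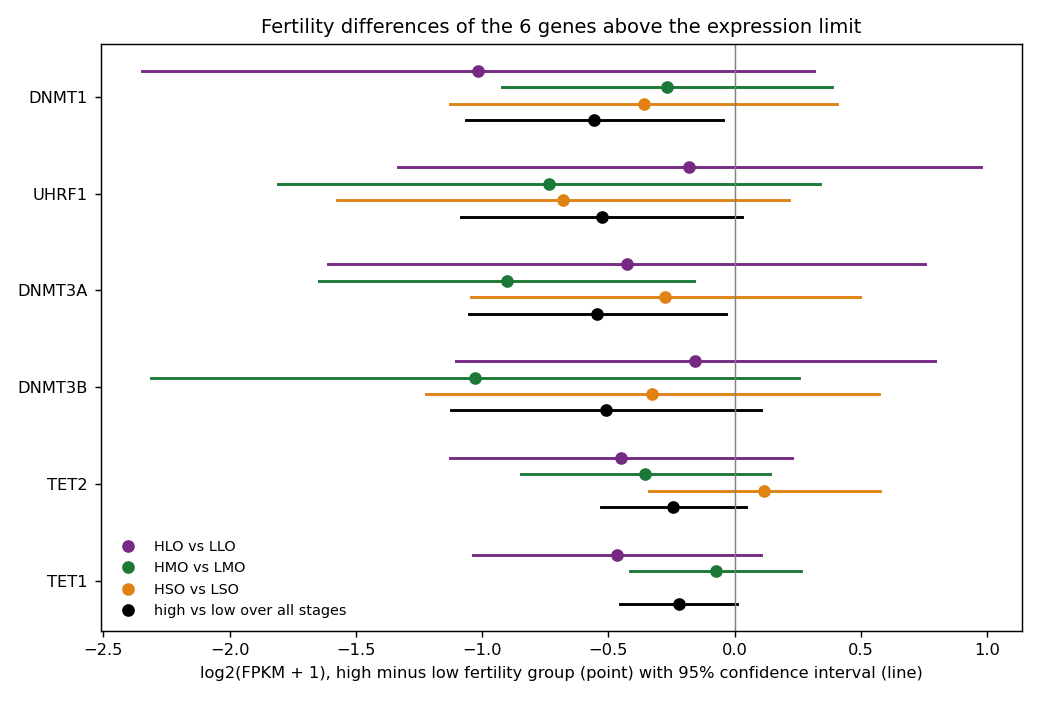
Difference of log2(FPKM + 1) between high and low fertility oocytes for 6 genes, with 95% confidence intervals, at each follicle size and over all sizes; TET1 was not tested in small follicles. The intervals of DNMT3A in medium follicles (-1.64 to -0.16) and of DNMT1 and DNMT3A over all sizes lie below 0, and the others reach across it; no gene had an adjusted p under 0.05.

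The level of several members moved with the FPKM sum of the sample. Spearman's rho over 29 samples was -0.83 for UHRF1, -0.62 for DNMT3B, -0.61 for DNMT3A and -0.58 for TET2, and -0.32 for DNMT1. These points share libraries, and the sum is itself a total of the FPKM of the same library. The sums were 376899 to 490048 in the high and 222697 to 448945 in the low fertility samples. The part of the sum in the fertility differences was not tested. Median-of-ratios scaling does not use the sum. With it the difference of DNMT1 over all sizes was -0.45 and did not meet the unadjusted limit. That of DNMT3A was -0.47 over all sizes and -0.82 in medium follicles and met it in both. Levels also differed by the replicate number in the sample name, to which the labels give no further meaning. In limma's F-test of that number within groups, chosen after the data were seen, 2 of 6 members (DNMT3A and UHRF1) had an adjusted p under 0.05, beside 50.5% of all genes.

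Follicle size was compared with fertility as a covariate. In limma's F-test 0 of 6 members had an unadjusted p under 0.05, beside 1.66% of all genes, and 0 of 9692 genes had an adjusted p under 0.05. DNMT1 had the smallest p (F = 2.61, adjusted p = 0.99998), and its mean in large follicles was 0.60 above that in medium follicles on the log2 scale (interval -0.01 to 1.21). Leaving out LLO replicate 2 brought the F of DNMT1 to 1.38 and leaving out LLO replicate 5 to 1.67. When LLO replicate 1 was removed it was 4.55, which met the unadjusted limit, and with array weights it was 0.512. TET2 was higher in large than in medium follicles by 0.35 (interval 0.0019 to 0.69; limma adjusted p = 0.99996), beside 2.4% of all genes with an unadjusted p under 0.05 in that contrast. UHRF1 had the flattest profile, with differences of 0.04 to 0.08 between sizes and interval bounds between -0.65 and 0.77. Whether the fertility difference changed with follicle size was tested by the interaction of both. Here 0 of 6 members had an unadjusted p under 0.05, beside 7.89% of all genes, and the smallest p was that of TET2 (F = 1.57, adjusted p = 0.837). The difference between the high and low fertility samples was therefore not shown to vary with size for any of these 6. The F of TET2 was 0.802 without HSO replicate 4 and 3.27 without LLO replicate 1.

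Some pairs of members varied together and others did not. Over the 29 samples Spearman's rho was 0.78 between UHRF1 and DNMT3B, 0.73 between DNMT3A and TET1, 0.53 between DNMT1 and TET2 and 0.48 between TET1 and TET2. These were the highest pairs. The maintenance pair DNMT1 and UHRF1 had a rho of 0.31, UHRF1 and DNMT3A 0.30 and the de novo enzymes DNMT3A and DNMT3B 0.08. When each value was set against its own group mean on a log2 scale, Pearson's r was 0.77 for UHRF1 and DNMT3B and 0.85 for DNMT3A and TET1. These values are descriptions, as the 2 genes of a pair come from the same libraries and share depth and normalization. LMO replicate 2 was the highest sample for UHRF1 and DNMT3B alike, whereas LLO replicate 2 was second for UHRF1 (138 FPKM) with DNMT3B at only 1.53. The ratio of DNMT3A to DNMT3B ranged on the log2 scale from -2.13 in LMO replicate 2 to 3.06 in HLO replicate 1.

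**Figure D3:**
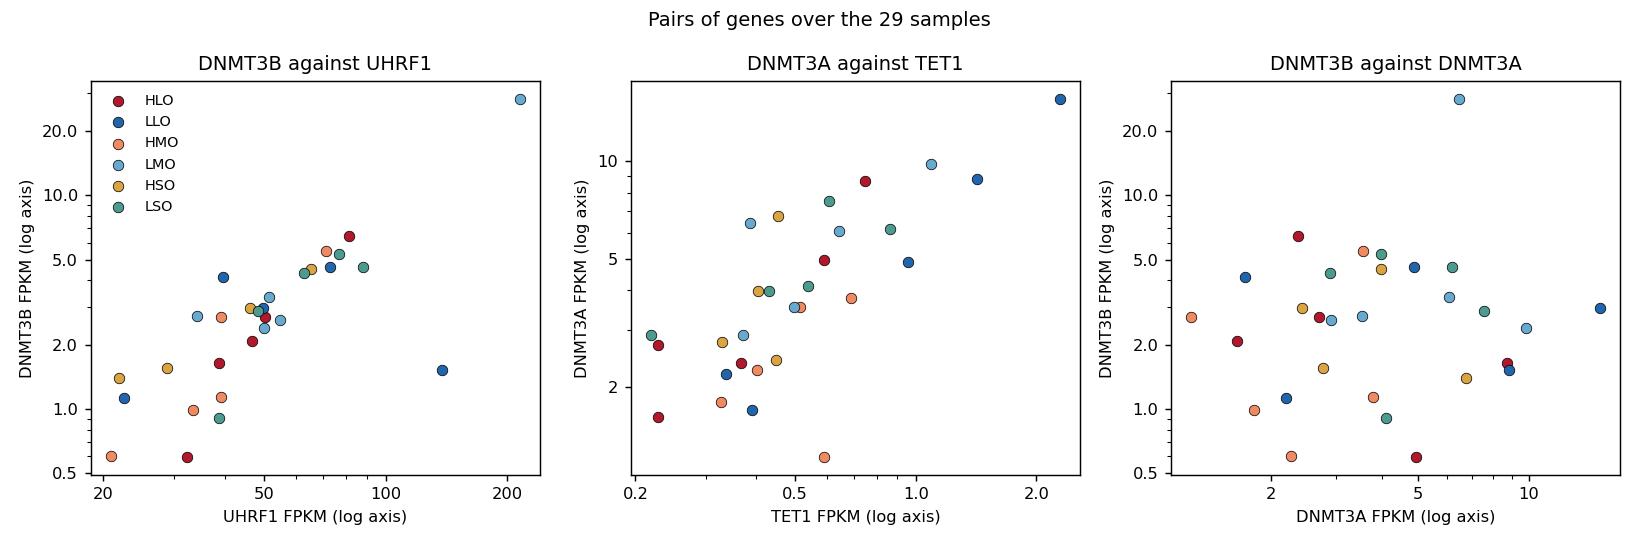
DNMT3B against UHRF1, DNMT3A against TET1 and DNMT3B against DNMT3A in the 29 samples, as FPKM on log axes, coloured by group. The first and second pairs rise together (Spearman's rho 0.78 and 0.73) and the third does not (0.08).

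Genes with the most similar pattern to the 3 highest members were sought by Spearman's rho among 9654 genes with a symbol over the same 29 samples. For DNMT1 these were SRRM1 (0.830), USP6NL (0.810) and WBP11 (0.806). SRRM1 and WBP11 are symbols carried by 2 and 6 rows, and each rho belongs to a single row. How reads fell between such copies was not examined. For UHRF1 they were POLR2A (0.934), UBFD1 (0.934) and TJP1 (0.934), and for DNMT3A they were POLQ (0.904), SRP72 (0.900) and IGF2BP3 (0.892). The median rho of all genes was -0.02 with DNMT1, -0.19 with UHRF1 and 0.25 with DNMT3A.

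Other genes of the pathway were read in 6 lists. Among readers of methylated CpG, 12 of 12 had a row and UHRF2 (median 26.6 FPKM), a relative of UHRF1, ZBTB33 (13.5), MBD4 (5.18) and ZBTB38 (2.89) were highest. Among 17 genes of base excision and the GADD45 family, which replace altered cytosines, POLB (17.6), GADD45A (15.0), NEIL3 (11.2) and APEX1 (11.0) led. TDG, the glycosylase that removes the oxidised bases made by TET enzymes, had a median of 0.031 FPKM and was named after its value was seen.

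Of 18 chromatin partners PCNA, the replication clamp, was highest at a median of 1590 FPKM. CBX5 (27.3), USP7 (19.4), a deubiquitinase that binds DNMT1 and UHRF1, and KDM1A (10.5) followed. In the S-adenosylmethionine cycle, which supplies the methyl group, MAT2B (66.4), MTHFD1 (8.03), MAT2A (6.46) and AHCY (3.54) were highest of 14 genes. The subcortical maternal complex, with 6 of 8 genes found, was led by OOEP (106), KHDC3L (6.13), TLE6 (6.09) and PADI6 (3.91). Among 9 symbols of the CRL4 ligase and partners of TET proteins, of which 8 had a row, RBX1 (852), OGT (3.27), CUL4B (0.878) and CUL4A (0.702) led.

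**Figure D4:**
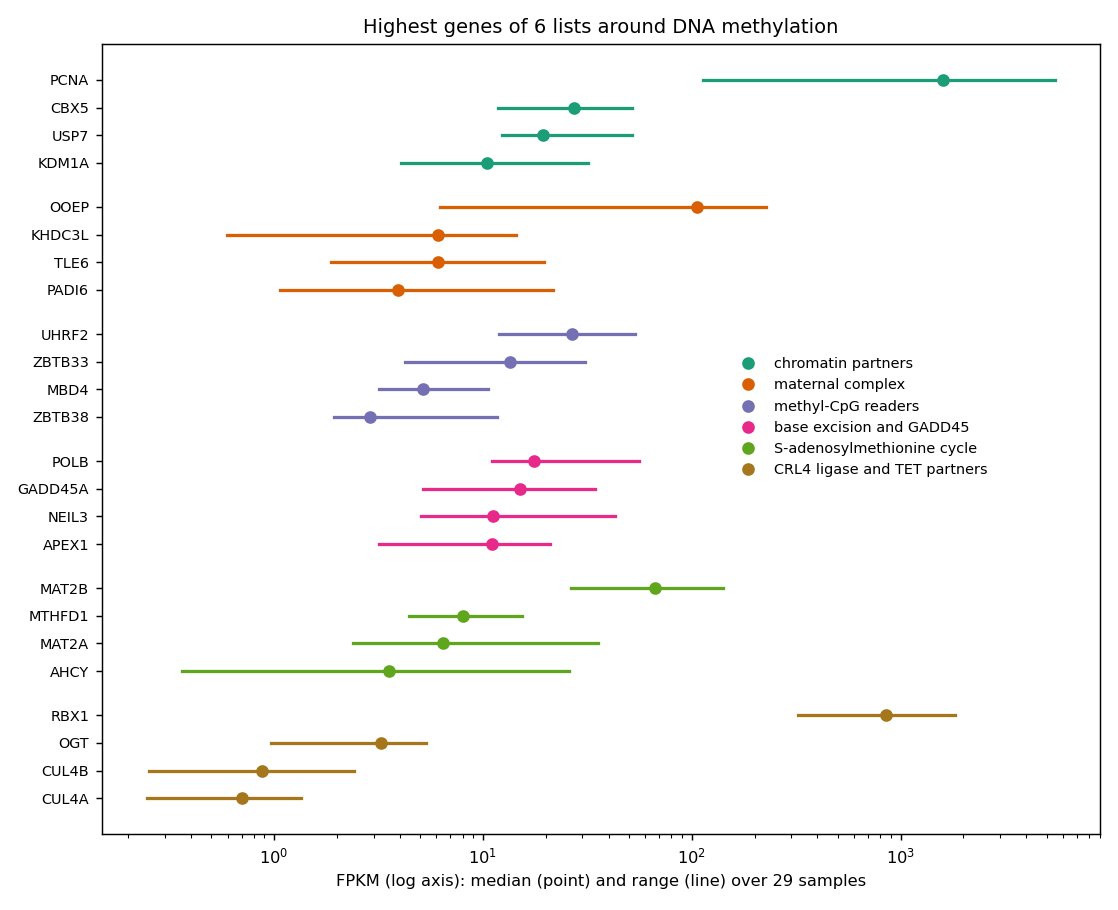
Median FPKM (point) and range over 29 oocyte samples (line), on a log axis, of the 4 highest genes in each of 6 lists around DNA methylation. PCNA and RBX1 have medians of 1590 and 852 FPKM, and CUL4A the lowest of those drawn, 0.702.

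None of the pathway genes had an adjusted p under 0.05 by limma with Benjamini-Hochberg adjustment in the fertility, size or interaction tests. With an unadjusted p under 0.05 there were 1 of 49 in large follicles (0 higher and 1 lower in the high fertility group), 3 of 49 in medium (1 and 2), 1 of 50 in small (0 and 1) and 5 of 59 over all sizes (0 and 5). There were 0 of 59 in the test of follicle size and 1 of 59 in that of the interaction. None of these shares was above that of all genes with an unadjusted p under 0.05 in either direction, given above. Counted as lower in the high fertility group only, the 1 in large follicles is 2.04% of the 49, beside 1.16% of all genes. The 2 of 49 in medium stand beside 3.58% and the 1 of 50 in small follicles beside 2.36%. The 5 that were lower over all sizes are 8.47% of the 59, beside 6.59% of all genes. The genes in these counts are named after their values were seen. In large follicles it was KDM1B, a histone demethylase that in mice is needed for maternal imprints (log2 difference -0.57, limma adjusted p = 0.828). In medium follicles they were GADD45A (-0.89), MTR (-0.57) and OOEP (1.53), and in small follicles NEIL3 (-0.95). Over all sizes they were KDM1B (-0.40), USP7 (-0.38), CTCF (-0.37), MTR (-0.32) and DDB1 (-0.19), and in the interaction test BHMT.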

How the data were processed

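Oocyte mRNA was enriched with oligo(dT) beads and sequenced on an Illumina instrument. Per the study's methods, the authors aligned reads to the goat genome (aligner and build not given in the sources used here), kept uniquely matching reads with few mismatches, removed duplicates with picard and deposited FPKM values from Cufflinks with the Ensembl annotation. Columns were assigned by name; 1 column of values matched no sample and was not used. FPKM showed no common step, so read counts could not be recovered from the table; other sources of depth were not used here.

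log2(FPKM + 1) was tested with limma 3.58.1 in R 4.3.3, by moderated tests with a trend. Genes above 0.5 FPKM in at least 4 samples compared were tested, with Benjamini-Hochberg adjustment over all of them. A check used simulated data drawn independently for each gene and sample. Such data lack the pattern by replicate number, so the check cannot show how the test behaves with it. Named members were those with an unadjusted p under 0.05, otherwise the one with the smallest p. For lists, the 4 genes of highest median and any with an adjusted p under 0.05 were named; 1 listed gene is not reported here. Members and lists were chosen with earlier results of these data known. Alternatives were pseudocounts of 0.1 and 0.5, no filter or 1 FPKM, median-of-ratios scaling, array weights, a replicate block, 1 fit over all groups, exact permutation tests and each sample left out. Leaving out 2 libraries together and the test of replicate numbers were added after the data were seen. Python 3.11.15 (pandas 2.3.3, scipy 1.17.1) was used for descriptions.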

Additional observations from a re-analysis of the deposited data

Results flagged for a closer look

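Among 36 sets of a gene and a group of 4 or 5 samples, 3 held a sample far from the others by Dixon's criterion, each the highest of LMO. Normally distributed values would pass this limit in about 1 of 20 independent sets. It was applied to FPKM without a log scale, which need not be so distributed, and the sets share libraries. UHRF1 was 214 FPKM in LMO replicate 2, with the next LMO sample at 54.8, and DNMT3B was 28.2 FPKM in the same sample, with the next at 3.34. This library had the lowest FPKM sum of all. TET2 was 3.07 FPKM in LMO replicate 4, with the next LMO sample at 1.34. DNMT1 in LLO (432 FPKM in replicate 2 and 225 in replicate 5) was not among them.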

How the results depend on the processing

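No member changed direction among the differences followed (TET1 in large, DNMT3A in medium, UHRF1 in small follicles, DNMT1 and DNMT3A over all sizes). Of the members not followed, UHRF1 turned higher in HLO with array weights and without LLO replicate 2, DNMT3B turned higher in HLO with array weights, median-of-ratios scaling and without HLO replicate 1 or LLO replicate 4, TET1 turned higher in HMO without LMO replicate 4, and TET2 turned lower in HSO without HSO replicate 4. TET1 could not be recomputed with a limit of 1 FPKM. The number of members with an unadjusted p under 0.05 moved as follows. In large follicles (0) it was 1 with array weights and 2 with 1 fit over all groups. With a sample left out it was 0 to 3. It was 3 without LLO replicate 1, beside 673 of 8064 genes, and 1 without LLO replicate 3, beside 879 of 8256. In medium follicles (1) it was 2 with no filter, as TET3 entered, and 0 to 2 with a sample left out. It was 2 without HMO replicate 2, beside 1046 of 8280 genes. In small follicles it stayed 0. Over all sizes (2) it was 1 with median-of-ratios scaling, 0 without LLO replicate 2 and LMO replicate 2 together, and 0 to 5 with a sample left out, 5 without LLO replicate 1, 4 without HSO replicate 4 or LLO replicate 3 and 0 when HLO replicate 2, LLO replicates 2 or 5, or LMO replicate 5 was removed. For follicle size (0) it was 0 to 2. It was 2 without LLO replicate 1, beside 223 genes, and 1 without LMO replicate 4, beside 150 genes. For the interaction (0) it was 1 with no filter, as TET3 entered. Array weights gave DNMT3A an adjusted p under 0.05 in medium follicles and over all sizes (1 member each), where 1011 and 691 genes passed in place of 6 and 1 and the median of all genes moved to -0.32 and -0.16.

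Replicate numbers were not taken as pairs: of 70 pairs of samples with the same number 55 had a correlation of deviations over 0.1, not all, and 21 of 29 samples matched best with their own number. With a replicate block the members with an unadjusted p under 0.05 were 3 of 6 in medium follicles (DNMT3A, DNMT3B, UHRF1), beside 1376 of 8390 genes. Over all sizes they were 4 of 6 (DNMT1, DNMT3A, UHRF1, TET1), beside 1461 of 9692 genes. No member had an adjusted p under 0.05 with the block, and no other member was called. Genes with an adjusted p under 0.05 in medium follicles were 127 in place of 6, and for the interaction 70 in place of 0. In the test of replicate numbers the members with an unadjusted p under 0.05 (2) were 5 with median-of-ratios scaling and 5 with array weights, and 2 to 4 with a sample left out; with an adjusted p (2) they were 4, 5 and 1 to 4. Genes with an unadjusted p under 0.05 were 345, 727, 369, 161 and 765 in large, medium and small follicles, for size and for the interaction, against 1372, 3341, 679, 817 and 1619 with array weights, 684, 1376, 788, 277 and 1405 with the block and 609, 1302, 743, 364 and 1197 with no filter; with a sample left out they were 152 to 879, 398 to 1046, 153 to 643, 85 to 489 and 593 to 1109, and the 6 genes with an adjusted p in medium follicles were 0 to 160; over all sizes 968 became 3278, 1461 and 563 with array weights, the block and both libraries left out. The causes were not tested. Goats behind samples are not recorded.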

Other observations

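Across groups, levels differed by the replicate number in the sample name for 2 of 6 members, a smaller share than among all genes. The labels give this number no meaning beyond naming the replicate, and the test was chosen after the values were seen. DNMT3A was lowest in replicate 3 in 6 of 6 groups and highest in replicate 5 in 5 of 6. Its median was 3.15, 3.97, 2.06, 4.03 and 7.15 FPKM for numbers 1 to 5 (n = 6, 5, 6, 6 and 6). In a limma F-test of the number within groups DNMT3A had F = 7.47 (adjusted p = 0.00215) and UHRF1 F = 4.86 (adjusted p = 0.0137), 2 of 6 members beside 50.5% of all 9692 genes with an adjusted p under 0.05. UHRF1 was lowest in replicate 1 in 4 of 6 groups and highest in replicate 2 in 3 of the 5 groups that have one. DNMT1 was also lowest in replicate 1 in 4 of 6 groups, and TET1 was highest in replicate 5 in 4 of 6. Neither DNMT1 nor TET1 had an adjusted p under 0.05 in that test. How often all genes hold such extremes was not counted. Without LLO replicate 2 and LMO replicate 2 F was 2.26 for UHRF1, which then missed even the unadjusted limit, and 7.55 for DNMT3A. The members with an adjusted p under 0.05 in this test were then DNMT3A and DNMT1. The log2 ratio of DNMT3A to DNMT3B was above 0 in 6 of 6 samples numbered 5 (mean 1.84) and in 6 of 6 numbered 1 (mean 1.26), and in 1 of 6 numbered 3 (mean -0.58). What the numbers mark was not tested.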
